A study of Homo sapiens with 10 samples.

Results

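ZEB1 binding on the third day of eribulin exposure was followed by setting the 2 libraries made after 72 h of drug against the 2 made after 48 h, over all 52981 regions of the deposited count table. These 4 libraries are among the 10 of the series. The cells were the human MDA line of the labels, a breast cancer line described as Er-/Pr-/Her2-, and eribulin (spelled Erubilin in the labels) was given at 300 nM. The other ZEB1 libraries, used here for levels and for the estimate of spread, were 2 from cells without drug and 2 from cells after 24 h, and 2 IgG libraries from cells without drug were not analysed here. All of them come from 1 line, and CUT&RUN was done with an antibody to ZEB1, so no result here measures RNA or protein.

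ZEB1 is a zinc finger transcription factor that binds E-boxes of the form CACCTG and is best known for repressing epithelial genes such as those of cell junctions, although at sites shared with AP-1 or TEAD factors it can also activate. Its loss or displacement is a feature of the mesenchymal-epithelial transition, the switch of spread, motile cells towards a sheet-forming epithelial state, and the study's title names that transition. Eribulin is a microtubule inhibitor that binds the growing ends of microtubules and is used in advanced breast cancer. In CUT&RUN an antibody tethers a nuclease to the chromatin where the protein sits, and the fragments it releases are sequenced, so the count at a region reflects occupancy together with how much of that DNA the cells carry and how open it is.

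The sequences at promoter calls are shown because the windows differed in the motifs they held, among lower and among higher sites alike. Promoter windows are RefSeq's, 250 bases before to 50 after the start of a gene (GRCh38.p14). Capitals mark 3 motifs on either strand: the E-box CACCTG, the AP-1-like pattern TGANTCA (N is any base) and the TEAD site GGAATG. The first window belongs to ASMTL, in the pseudoautosomal region of the X chromosome, where the signal was lower at 72 h and no motif was found (chrX:1452860-1453159, minus strand). The next belongs to LOC105378598, a long noncoding RNA gene beside TTC34, whose lower site covers only the last 5 bases of the window, while the window holds CAGGTG, the same E-box on the other strand, 7 times (chr1:2774359-2774658, plus strand). The other three belong to sites that were higher at 72 h, at MIEF2, which encodes an adaptor for mitochondrial fission (chr17:18260412-18260711, plus strand), at LCN2, which encodes the iron-carrier-binding protein lipocalin 2 (chr9:128149203-128149502, plus strand), and at LOC124905045, a long noncoding RNA gene beside SPATC1L (chr21:46184297-46184596, plus strand).
ASMTL: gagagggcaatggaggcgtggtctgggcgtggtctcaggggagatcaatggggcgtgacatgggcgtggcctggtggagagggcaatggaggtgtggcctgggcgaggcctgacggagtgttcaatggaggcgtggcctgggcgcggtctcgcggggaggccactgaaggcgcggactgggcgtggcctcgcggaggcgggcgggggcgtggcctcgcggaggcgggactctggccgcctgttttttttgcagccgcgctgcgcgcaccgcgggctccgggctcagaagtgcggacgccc
LOC105378598: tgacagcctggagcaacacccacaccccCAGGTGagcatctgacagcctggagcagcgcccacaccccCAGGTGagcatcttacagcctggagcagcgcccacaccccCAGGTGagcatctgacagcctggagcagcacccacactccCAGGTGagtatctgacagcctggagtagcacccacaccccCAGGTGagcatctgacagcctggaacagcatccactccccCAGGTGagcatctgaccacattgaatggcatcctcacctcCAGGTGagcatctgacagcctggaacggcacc
MIEF2: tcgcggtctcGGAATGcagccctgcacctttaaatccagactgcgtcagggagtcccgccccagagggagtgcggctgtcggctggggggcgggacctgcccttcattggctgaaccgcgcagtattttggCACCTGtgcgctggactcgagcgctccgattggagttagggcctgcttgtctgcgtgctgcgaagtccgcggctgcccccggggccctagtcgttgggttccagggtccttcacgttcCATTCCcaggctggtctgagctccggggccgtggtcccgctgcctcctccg
LCN2: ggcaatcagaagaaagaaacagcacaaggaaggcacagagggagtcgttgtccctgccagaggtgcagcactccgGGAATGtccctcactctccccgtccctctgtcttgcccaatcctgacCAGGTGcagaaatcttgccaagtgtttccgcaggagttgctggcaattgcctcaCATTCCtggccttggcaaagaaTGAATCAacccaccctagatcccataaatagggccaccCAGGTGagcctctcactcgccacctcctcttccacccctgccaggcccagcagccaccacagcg
LOC124905045: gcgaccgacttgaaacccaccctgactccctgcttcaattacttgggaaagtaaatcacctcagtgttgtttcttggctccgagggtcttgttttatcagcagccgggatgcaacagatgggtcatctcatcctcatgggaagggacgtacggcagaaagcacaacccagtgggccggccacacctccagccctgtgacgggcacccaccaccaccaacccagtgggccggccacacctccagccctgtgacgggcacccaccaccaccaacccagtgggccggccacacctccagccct

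The MIEF2 window holds 1 CACCTG and 2 GGAATG matches, and the LCN2 window 2 CACCTG, 1 TGANTCA (in the form TGAATCA) and 2 GGAATG matches. The LOC124905045 window, like that of ASMTL and that of the lower site at NFYA, held none of the 3. Among all 34911 RefSeq promoter windows, 20.6% held CACCTG on either strand. The share was 34.4% of the 375 windows overlapped by a site that rose, 15.7% of the 153 overlapped by a site that fell and 19.2% of the 12210 overlapped by any tested site. Calls were commoner at strong sites, so the same count was made among the 20% of tested sites with the highest level: there CACCTG was held by 34.4% of 308 windows with a higher site, 17.5% of 114 with a lower site and 22% of 4169 with a site that was not called. The AP-1 letters TGANTCA were in 9.87% of the windows with a higher site, 8.5% of those with a lower site, 6.16% of those with any tested site and 7.72% of all windows. For GGAATG the shares were 15.7%, 12.4%, 11% and 14.1%, and for CACCTA, the other E-box form searched, 8.27%, 5.88%, 6.88% and 7.9%. Among the strongest 20% of sites, TGANTCA was held by 9.74% of windows with a higher site, 7.89% with a lower site and 5.95% with a site that was not called, and GGAATG by 16.9%, 15.8% and 10.6%. These shares describe letters in a window and were not tested, and some windows share a site.

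Counting error was the only error these libraries could show. The libraries held 1346179 and 1380070 counts in regions at 48 h and 1207987 and 1130706 at 72 h. Over regions with at least 20 counts, the 2 libraries of a time differed by no more than sampling noise (chi-square per degree of freedom 0.928 at 48 h and 0.951 at 72 h), while 48 h and 72 h libraries differed by 2.029 to 2.072. Each pair was therefore counted as 1 sample, so n = 1 per time: the p-values compare these libraries and say nothing of how separate cultures would vary, and the 95% exact binomial intervals cover counting error only. Each library's value is still given, in CPM, the count scaled to the size of its library.

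Of 46436 tested sites, 1118 were lower at 72 h (2.41%) and 1308 were higher (2.82%; edgeR quasi-likelihood test, Benjamini-Hochberg adjusted p under 0.05). Changes of at least 2-fold were made by 648 lower sites (1.40%) and 448 higher sites (0.965%). The median log2 fold change was -1.11 over the sites that fell and 0.81 over those that rose. Sites that fell had a median of 32.8 CPM at 48 h and 16.1 CPM at 72 h, beside 12.6 CPM in cells without drug and 14.7 CPM at 24 h. Sites that rose had a median of 31.3 CPM at 48 h and 55.0 CPM at 72 h, beside 32.2 CPM without drug and 27.7 CPM at 24 h. Over all tested sites the median lay between 12.6 and 13.1 CPM in every condition. A link states only which gene is closest, and not which gene a site acts on. Summed over the sites linked to each gene (whichever protein-coding or microRNA gene ended closest, up to 100 kb away), 685 of 14744 genes were lower (4.65%) and 774 higher (5.25%), 9.90% in all. At least 2-fold changes were seen in 127 lower genes (0.861%) and 76 higher genes (0.515%). Scaled to the peak caller's background floor instead, 1621 sites were lower and 886 higher, so that 64.7% of calls were losses against 46.1%. With an assumed variation of 0.2 between samples (coefficient of variation), which these data cannot replace by a measured one, no site was lower and 1 was higher. That site, named after its value was seen, lies 7318 bases from ZBTB5 (chr9:37472768-37472833): it had 2 and 1 counts at 48 h and 22 in each library at 72 h, a ratio of 16.3 with a log2 interval of 2.46 to 6.43. DESeq2's test gave an adjusted p for 16727 of the sites and called 187 lower and 264 higher. Without any 1 of the 4 libraries the lower count was 501 to 592 and the higher count 591 to 632 (without 48 h replicate 1, 592 and 610; without replicate 2, 568 and 599; without 72 h replicate 1, 501 and 632; without replicate 2, 507 and 591).

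**Figure D1:**
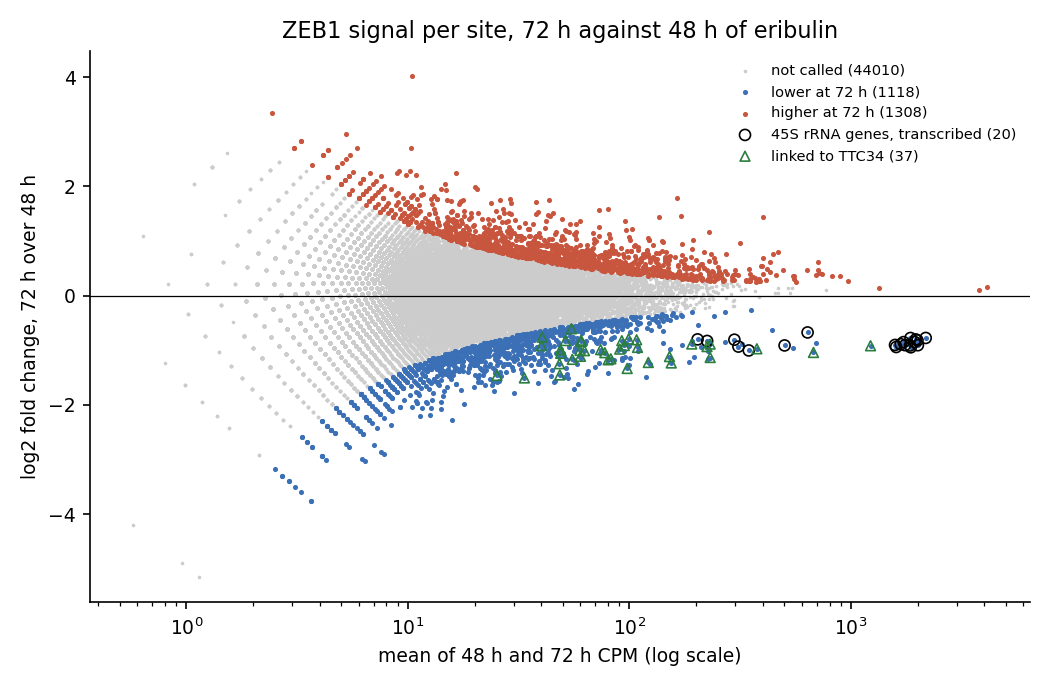
Each point is a tested site, with the mean of its 48 h and 72 h CPM on a log axis and its log2 fold change (72 h over 48 h); colour marks the 1118 lower and 1308 higher calls, open circles the 20 sites in the transcribed part of the 45S rRNA genes and open triangles the 37 sites linked to TTC34. Both marked groups lie wholly below 0.

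Of the 10 strongest tested sites 8 sit on the ribosomal RNA genes, and every site in the transcribed part of these genes fell on the third day. The 45S rRNA genes encode the precursor of 3 of the 4 ribosomal RNAs and stand in long arrays, of which the build carries a few copies on the short arm of chromosome 21. All 20 sites in the transcribed part were lower at 72 h, with log2 fold changes of -1 to -0.67. Together they took 3.36% and 3.20% of all counts in the 48 h libraries and 1.82% and 1.77% in the 72 h libraries. Summed, they stood at 34138.6 CPM at 48 h and 18801.8 CPM at 72 h, a log2 ratio of -0.86 (-0.88 to -0.84), beside 20196.5 CPM without drug and 22278.5 CPM at 24 h. Thus both libraries at 72 h lay below both at 48 h, at a level near that of cells without drug. By contrast, none of the 20 sites in the spacer between the genes was called, and their log2 fold changes ran from -0.31 to 0.13. The sum over the spacer was 1446.9 CPM at 48 h and 1296.5 CPM at 72 h (log2 ratio -0.16, -0.23 to -0.09). Reads from near-identical copies cannot be assigned to one of them, so the split between copies is uncertain, and copy number was not measured. None of the 7 sites on the separate 5S rRNA genes was called. The 45S group was chosen after its values were seen and has no test of its own.

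**Figure D2:**
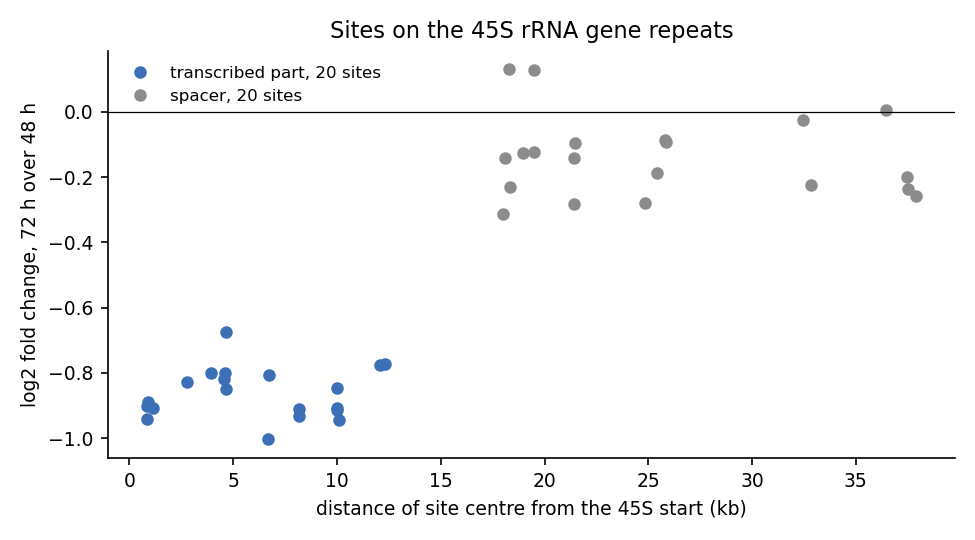
Log2 fold change (72 h over 48 h) of the 40 sites on the 45S rRNA gene repeats, by distance of the site's centre from the start of the 45S gene in kb. The 20 sites of the transcribed part lie between -1 and -0.67, and the 20 spacer sites between -0.31 and 0.13.

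MicroRNA genes annotated at these repeats, with MIR10396A outside them at chr21:8987617-8987665, carried the calls to the gene level. Genes with at least 2 linked sites were ranked by p. MIR6724-1 to MIR6724-4, MIR3648-1, MIR10396A and MIR10396B made up 7 of the first 10 among losses, with log2 fold changes of -0.90 to -0.79. Of the mature sequences that could be matched, those covered whole by a called site lie in the one at chr21:8986731-8987637, which was lower at 72 h (372 and 325 CPM at 48 h, 189 and 199 CPM at 72 h, log2 fold change -0.85, adjusted p = 8.17e-22). They are shown because the signal there falls on the microRNAs themselves, with the seed (bases 2 to 8) in capitals, from RefSeq at GRCh38.p14 chr21:8987026-8987046 and chr21:8987617-8987635, both on the plus strand.
hsa-miR-3648: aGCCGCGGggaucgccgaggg
hsa-miR-10396a-5p: gGCGGGGCucggagccggg

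The 2 seeds differ, and no level of either microRNA was measured. MIR3648-1 (chr21:8208473-8208652) is covered over 73 bases by the lower site at chr21:8208580-8208942 (log2 fold change -0.83). MIR6724-1 to MIR6724-4 and MIR10396B overlap no called site and lie beside theirs: for MIR6724-4 the strongest site (chr21:8432702-8435948) stood at 2713.7 and 2510.8 CPM at 48 h and at 1417.5 and 1367.0 CPM at 72 h.

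The broadest loss outside the rRNA genes was at TTC34, a tetratricopeptide repeat gene near the end of the short arm of chromosome 1, where all 37 linked sites fell. Their log2 fold changes ran from -1.51 to -0.61. Summed over the gene, the level was 7840.4 and 7781.0 CPM at 48 h and 3863.5 and 3906.7 CPM at 72 h (log2 fold change -1.01, -1.05 to -0.97; adjusted p = 4.16e-235). Without drug it was 696 CPM and at 24 h 1263.3 CPM, so the 72 h level remained above both. The strongest site (chr1:2653627-2655811, in the gene body) had 1623.7 and 1578.2 CPM at 48 h and 836 and 861 CPM at 72 h. A like course was seen at TMEM242, which encodes an inner mitochondrial membrane protein. Its site at chr6:157310413-157312185, in a gene body, had 749 and 702 CPM at 48 h and 359 and 384 CPM at 72 h (log2 fold change -0.97, adjusted p = 8.78e-47), beside 122 CPM without drug and 115 CPM at 24 h. With only sites within 5 kb linked, which leaves this site out, TMEM242 had a log2 fold change of 0.16 (adjusted p = 0.822). SHOX, a homeobox gene of the pseudoautosomal region, had its called site 64974 bases away (chrX:724385-725402). That site went from 325 and 301 CPM at 48 h to 139 and 143 CPM at 72 h, a log2 fold change of -1.15. With sites within 5 kb only, SHOX had a log2 fold change of -1.05 and was not called (adjusted p = 0.11), against -1.13 with both of its sites.

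Many further losses lay near chromosome ends. Of sites within 2 Mb of an end, 7.86% were lower, a share that was 6.14% from 2 to 5 Mb, 2.59% from 5 to 10 Mb and 1.57% beyond 20 Mb, while the share of higher sites stayed between 2.42% and 3.15%. In all, 36.3% of lower sites, 11.2% of higher sites and 12.5% of tested sites lay within 5 Mb of an end. The 406 lower sites within 5 Mb of an end had a median of 4.93 CPM without drug, 7.62 CPM at 24 h, 38.4 CPM at 48 h and 18.3 CPM at 72 h, and 178 of them held a peak without drug. All 5825 tested sites there had medians of 11.4 CPM without drug and 11.3 CPM at 24 h, and the 712 lower sites farther from an end 21.9 and 22.1 CPM. The 10 losses of greatest fold among sites of at least median level, chosen by a fixed rule, had 1.54 to 5.86 CPM without drug, and all but that at TESMIN lay within 5 Mb of an end. The site of greatest fold was between genes, 46702 bases from ACTRT2, which encodes an actin-related protein (chr1:2974499-2974765). It had 21.6 and 31.0 CPM at 48 h and 4.33 and 6.48 CPM at 72 h, with 1.85 CPM without drug. The site in GOLGA3, a Golgi matrix protein gene (chr12:132817178-132817764), went from 28.6 and 28.7 CPM to 6.92 and 7.4 CPM. The site in RBFOX3, which encodes the neuronal splicing factor NeuN (chr17:79554295-79554557), went from 44.8 and 48.3 CPM to 17.3 and 9.26 CPM. The rule took only sites where both 72 h libraries lay on the same side of both 48 h libraries. This held for 46.6% of all tested sites. DESeq2 gave no adjusted p for any of the 10 sites, with log2 fold changes of -2.3 to -1.75. The other 7 were in CSMD1, TRAPPC9, PNMA6E, ARHGAP39 and BOK, between genes near TSPEAR and at the end of TESMIN, with log2 fold changes of -2.08 to -1.72. Sites with a peak in the 48 h list and in no other made up 1241 of the tested sites, and 283 of them (22.8%) were lower. These lists come from the same libraries, so the share describes the lists and is no separate evidence.

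**Figure D3:**
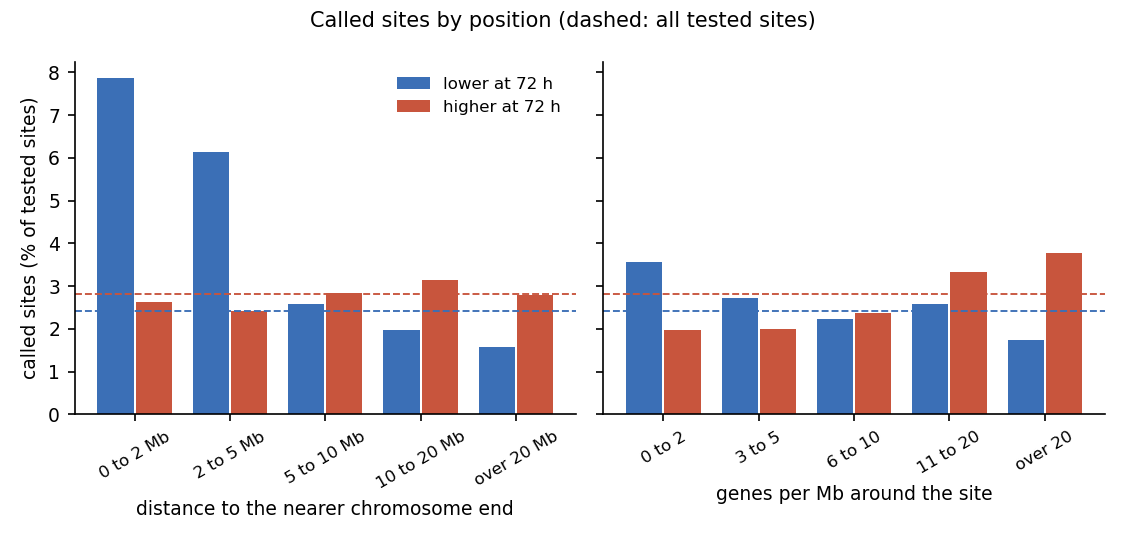
Bars give the percentage of tested sites called lower or higher at 72 h, by distance to the nearer chromosome end (left) and by genes per Mb around the site (right); dashed lines give the shares over all tested sites, 2.41% and 2.82%. Losses run from 7.86% within 2 Mb of an end to 1.57% beyond 20 Mb, and gains from 1.96% to 3.77% with gene density.

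Gains were commoner in gene-rich DNA. The share of higher sites was 1.96% where 0 to 2 genes lay per Mb and 3.77% where more than 20 did, and the share of lower sites was 3.56% and 1.74%. Of higher sites 33.1% lay within 1 kb of a gene end, against 19.1% of lower sites and 29.5% of tested sites, but of the higher sites of at least 2-fold 27.7% (23.6 to 32.1) did. Calls of both kinds were commoner at wide and strong sites: of sites over 1000 bases wide, 13.2% were lower and 20% higher, and of the 20% of sites with the highest level 5.2% were lower and 9.1% higher. For changes of at least 2-fold, 15 of the 454 widest sites were lower and 3 higher. Of the 9287 strongest sites 111 were lower and 84 higher by that measure, beside 648 and 448 of all 46436. The 2 strongest sites of all belonged to neither loss. The site 2853 bases from MIR8078, near the end of chromosome 18 (chr18:107700-109403), had 3988.3 and 3778.0 CPM at 48 h and 4408.2 and 4260.1 CPM at 72 h, a log2 fold change of 0.16 (adjusted p = 1.55e-04), against 759 CPM without drug. The site in DUX4, a double homeobox gene of the repeat array at the end of chromosome 4 (chr4:190177608-190180006), had 3708.7 and 3589.9 CPM at 48 h and 4056.0 and 3765.9 CPM at 72 h (0.10, adjusted p = 0.0427). Both calls were lost with the floor scaling (0.08 and 0.02, adjusted p 0.115 and 0.795) and with DESeq2's test. That of MIR8078 was also lost without 48 h replicate 2 (0.10) or 72 h replicate 1 (0.12). That of DUX4 was also lost without 48 h replicate 1 (0.12), 48 h replicate 2 (0.06) or 72 h replicate 1 (0.03), with DESeq2 size factors (adjusted p = 0.105), with no filter (0.0947), with the 48 h and 72 h libraries only (0.121) and with the replicate block (0.0579). Thus these chromosome-end sites differed little between the times, while the other 8 of the 10 strongest sites, all on the rRNA genes, fell. Copies of the DUX4 array share reads.

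**Figure D4:**
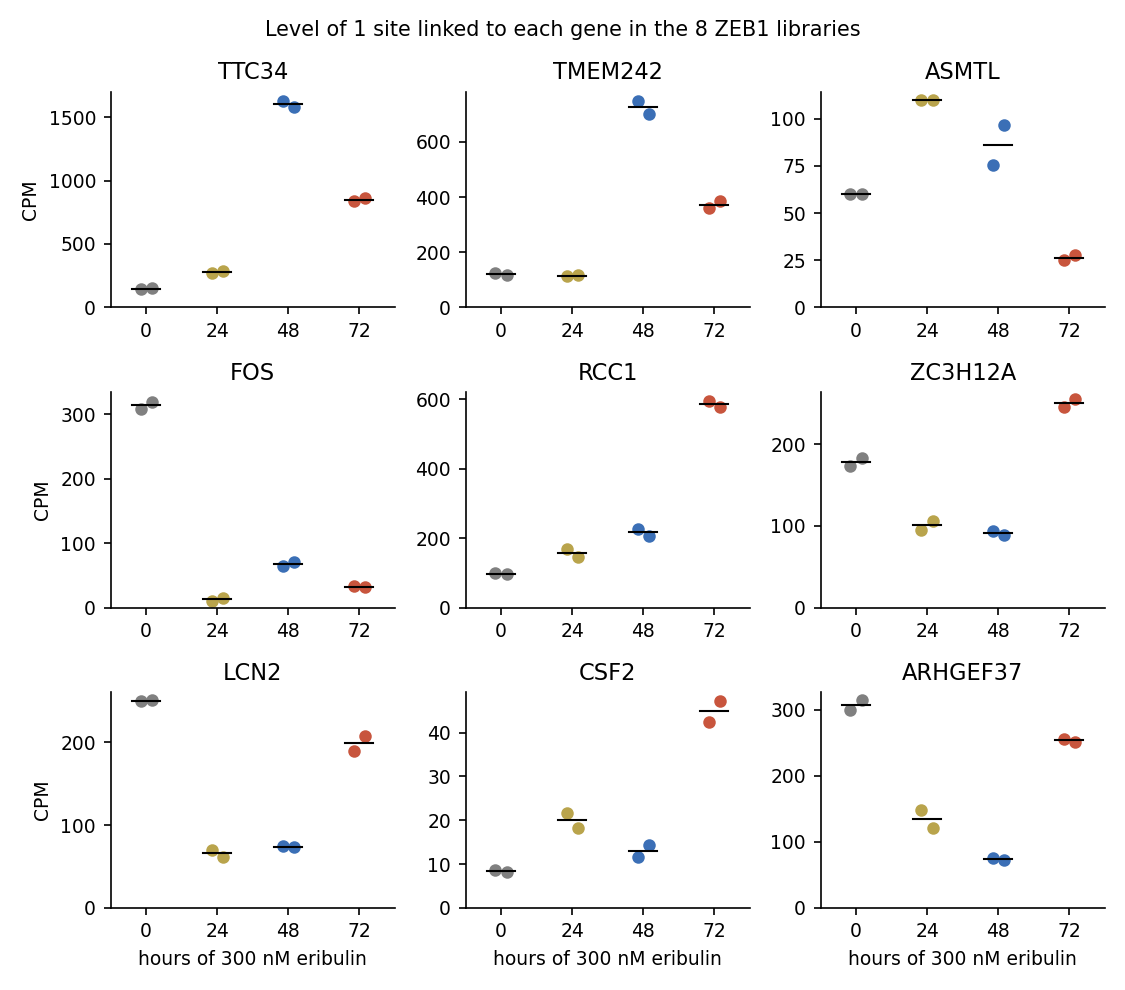
CPM of 1 site for each of 9 genes in the 8 ZEB1 libraries, by hours of 300 nM eribulin (0 is no drug); dots are libraries and bars the mean of the 2. TTC34, TMEM242, ASMTL and FOS are lower at 72 h than at 48 h, and RCC1, ZC3H12A, LCN2, CSF2 and ARHGEF37 are higher, with no overlap between the libraries of the 2 times. The same held for all 2426 called sites and for 46.6% of all tested sites.

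RCC1 had the smallest p among genes that rose and had at least 2 linked sites. RCC1 is the chromatin-bound exchange factor that loads Ran with GTP and is needed for spindle assembly. Its site at chr1:28509872-28511142 had 227 and 206 CPM at 48 h and 595 and 577 CPM at 72 h (log2 fold change 1.44, 1.29 to 1.58; adjusted p = 1.61e-64), with 97.3 CPM without drug and 158 CPM at 24 h. The site over the RCC1 and SNHG3 promoters was not called (33.2 and 40.8 CPM, then 46.7 and 50 CPM), so 1 of the 5 tested sites carried the change. At ZC3H12A, which encodes the RNase regnase-1 that destroys cytokine mRNAs, 4 of 7 sites rose. The strongest (chr1:37476502-37477672) had 93.5 and 88.4 CPM at 48 h, 245 and 255 CPM at 72 h, and 178 CPM without drug.

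At several other genes of this group the 72 h level came near or passed that of cells without drug. ARHGEF37, a guanine nucleotide exchange factor gene, had at chr5:149632380-149633246 74.9 and 71.7 CPM at 48 h and 256 and 251 CPM at 72 h (log2 fold change 1.79, adjusted p = 1.76e-45), beside 306 CPM without drug and 135 CPM at 24 h. The LCN2 promoter site (chr9:128149021-128149653) went from 74.2 and 73.2 CPM to 190 and 208 CPM (1.43, adjusted p = 2.69e-29), with 251 CPM without drug. For MIEF2 the promoter site (chr17:18259681-18260941) had 202 and 225 CPM at 48 h, 432 and 399 CPM at 72 h and 242 CPM without drug. VMP1, an autophagy gene, had its main site (chr17:59842265-59844629) at 323 and 339 CPM and then at 569 and 552 CPM, against 658 CPM without drug. At SPATC1L (chr21:46184432-46185209) the level was 566 and 554 CPM and then 849 and 871 CPM, with 631 CPM without drug and 85.4 CPM at 24 h. In each of these 5 the libraries of the 2 times did not overlap, as was true of all 2426 called sites and of 46.6% of all tested sites.

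Gains at KLF6 and SH3TC2 were spread over many sites of modest size. At KLF6, a zinc finger factor of the immediate early class, 10 of 26 linked sites rose and none fell, with a summed level of 1827.1 and 1877.4 CPM at 48 h and 2401.9 and 2525.4 CPM at 72 h (log2 fold change 0.41, 0.35 to 0.47). At SH3TC2, which encodes an endosomal recycling protein, 9 of 17 rose. Its site of greatest fold (chr5:149005138-149005464) had 6.18 and 5.29 CPM at 48 h and 31.2 and 23.1 CPM at 72 h, beside 57.7 CPM without drug. The remaining genes of the 10 with the smallest p were MIR4492 (log2 fold change 0.70) and ANXA6, a membrane-binding annexin (0.95). The 3 higher sites linked to MIR4492 lie in the body of another gene, BCL9L, 1161 to 7282 bases from the microRNA gene, and none overlaps it. With sites within 5 kb only, ANXA6 stood at 0.12 (adjusted p = 0.856) and KLF6 at 0.26 (adjusted p = 0.0522), so their calls came from more distant sites. With sites inside the gene or within 5 kb of it, MIR4492 stood at 0.38 (adjusted p = 0.31). Among single sites of at least median level, GSDMA, FSCN2, LEKR1, PHLDA1, MBP and SUSD1, with 1 site linked to no gene, had log2 fold changes of 1.77 to 2.04. LEKR1, PHLDA1, MBP and SUSD1 did not pass in at least 1 fit that left out a library.

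At immediate early and AP-1 genes the share of higher sites was above that of all sites, with FOS going the other way. The shares of this and the following lists were not tested. DESeq2's test gave an adjusted p for only part of each list's sites, here 153 of 259. Over all sites it gave one for 16727 and called 187 lower and 264 higher. With the floor scaling 1621 of all tested sites were lower and 886 higher. Immediate early genes, such as FOS and JUN, are switched on within minutes of a growth or stress signal, and their products form AP-1. Of 259 tested sites 27 were higher (10.4% against 2.82% of all) and 5 lower, and the median log2 fold change was 0.10 against 0.006 over all sites. These sites were stronger than most, and among the 20% with the highest level 24 of 110 were higher (21.8% against 9.1%). With the floor scaling 20 were higher and 6 lower, with DESeq2's test 11 and 2, and without any 1 of the 4 libraries 12 to 16 were higher. Higher sites were linked to KLF6 (10), DUSP5 and FOSL1 (4 each), ZFP36L1 and KLF10 (2 each), IER3, JUN, MYC, SPRY4 and DUSP1 (1 each). ZFP36L1, an mRNA decay factor gene, had at its end (chr14:68786440-68787157) 91.9 and 94.4 CPM at 48 h and 184 and 188 CPM at 72 h (log2 fold change 1.00, adjusted p = 1.36e-15). JUN, a subunit of AP-1, had 38.6 and 40.8 CPM and then 77.9 and 63.9 CPM at a site 425 bases from its end, against 128 CPM without drug. For FOS, the partner subunit, 1132 bases from the gene (chr14:75283362-75284463), the level was 64.1 and 71.0 CPM at 48 h and 32.9 and 32.4 CPM at 72 h (log2 fold change -1.05, adjusted p = 8.07e-06), beside 314 CPM without drug and 12.6 CPM at 24 h. ATF3 had 2 lower sites and no higher one.

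At inflammatory cytokine and NF-kappaB genes 16 of 142 sites were higher (11.3%) and 1 was lower, that of IL1R1. Their median log2 fold change was 0.23, and 14 were higher and 2 lower with the floor scaling, 5 and 0 with DESeq2's test, and 5 to 9 higher without any 1 library. CSF2, the gene of the growth factor GM-CSF, held 6 of them. Its site 130 bases from the gene (chr5:132076300-132076556) had 11.6 and 14.3 CPM at 48 h and 42.4 and 47.2 CPM at 72 h (1.78, adjusted p = 5.21e-09), with 8.48 CPM without drug and 20 CPM at 24 h. IL6, a cytokine gene, stood at 56.4 and 62.7 CPM and then at 95.2 and 117 CPM, against 98.1 CPM without drug. CXCL8, which encodes a neutrophil attractant, stood at 16.2 and 14.3 CPM and then at 32.9 and 39.8 CPM, against 62.1 CPM without drug. The inhibitor genes NFKBIA and TNFAIP3, which restrain NF-kappaB, each had 1 higher site (log2 fold changes 1.14 and 1.28).

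Epithelial junction and polarity genes, the class ZEB1 is known to repress, had a like share of higher sites. Of 215 sites 23 were higher (10.7%) and 5 lower, with a median log2 fold change of 0.18. With the floor scaling 17 were higher and 5 lower, and with DESeq2's test 3 and 2 of the 91 with an adjusted p. Without any 1 of the 4 libraries 9 to 11 were higher. Among the 20% with the highest level 14 of 61 were higher (23% against 9.1%). LAMB3, a chain of laminin-332 that anchors epithelial cells, had 6 higher sites. At its promoter (chr1:209652314-209652619) the level was 59.5 and 70.2 CPM at 48 h and 106 and 88.8 CPM at 72 h, beside 35.8 CPM without drug. PARD6B, a polarity complex gene, had 3, of which the strongest in p (chr20:50761533-50762182) had 161 and 174 CPM and then 235 and 256 CPM. For the tight junction genes the counts were low: CLDN4 had 3.86 and 5.29 CPM at 48 h and 18.2 and 12 CPM at 72 h, 640 bases from the gene (log2 fold change 1.72, 0.75 to 2.82), and OCLN had 11.6 and 6.04 CPM and then 26.8 and 18.5 CPM. TJP1, F11R, JUP, DSP, EVPL, KRT8 and ITGB4 were among the others with higher sites. PKP3, a desmosome gene near the end of the short arm of chromosome 11, fell from 132 and 131 CPM to 58.8 and 61.1 CPM (chr11:398038-399212, log2 fold change -1.13), and 33.8 CPM was its level without drug. KRT18, PRKCZ and LAMA3 also had lower sites, and LAMA3 had 1 higher site beside its lower one. None of the 6 tested sites linked to CDH1 (E-cadherin) or of the 3 linked to MIR200B, both textbook targets of ZEB1, was called. The CDH1 site with the smallest p had 10.0 and 6.04 CPM and then 12.1 and 19.4 CPM (log2 fold change 0.96, 0.14 to 1.82; adjusted p = 0.14), so a change near 2-fold was not detectable at this depth.

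Regulators of the epithelial and mesenchymal states had called sites in both directions. Of 101 sites at epithelial regulator genes 7 were higher (6.93% against 2.82% of all) and 5 lower (4.95% against 2.41%), which became 4 and 7 with the floor scaling and 2 and 0 with DESeq2's test. TFAP2A, a factor of epithelial and neural crest cells, went from 134 and 136 CPM to 191 and 202 CPM (chr6:10403680-10404590). SPDEF, an ETS factor of secretory epithelium, went from 8.5 and 7.55 CPM to 25.1 and 29.6 CPM (log2 fold change 1.76). OVOL1, a zinc finger repressor, fell from 35.5 and 40.8 CPM to 19 and 12 CPM. At EMT transcription factor genes 2 of 102 sites were higher (SOX9, ETS1) and 2 lower (RUNX1, SNAI1), 1.96% each and near the shares of all sites. With the floor scaling 1 was higher and 5 lower, and DESeq2's test called 0 of the 43 sites of this list with an adjusted p. The SOX9 site lay 43267 bases from its gene and the RUNX1 site 89415 bases. SNAI1, which encodes Snail, had 34.0 and 33.2 CPM and then 13.0 and 24.1 CPM at a site 41021 bases away (adjusted p = 0.0257). The ZEB1 gene's own end site (chr10:31318227-31319092) had 118 and 105 CPM at 48 h and 145 and 136 CPM at 72 h (log2 fold change 0.34, adjusted p = 0.0667), and none of its 5 sites was called. Mesenchymal effector genes had 11 higher (5.21%) and 5 lower (2.37%) of 211 sites, with a median log2 fold change of -0.05. With the floor scaling 8 were higher and 9 lower, and with DESeq2's test 3 and 1 of the 82 with an adjusted p. Among the 20% with the highest level 9 of 43 were higher (20.9% against 9.1% of all). VIM, the intermediate filament gene of mesenchymal cells, rose from 9.27 and 9.82 CPM to 27.7 and 25.0 CPM 693 bases from its end (log2 fold change 1.46, adjusted p = 6.18e-04). MMP14, a membrane-bound matrix protease gene, rose from 76.5 and 70.2 CPM to 128 and 131 CPM at a site 3288 bases away. For COL5A1, a fibrillar collagen gene, a site between genes 38812 bases away fell from 95.8 and 118 CPM to 58.0 and 68.5 CPM.

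Ribosomal protein and housekeeping genes, listed for comparison, had shares of higher sites near those of the immediate early, inflammatory and junction lists. Of 161 ribosomal protein sites 15 were higher (9.32%) and 4 lower, and of 89 housekeeping sites 10 were higher (11.2%) and 3 lower. Among the 20% with the highest level, 7 of 46 ribosomal protein sites (15.2%) and 6 of 29 housekeeping sites (20.7%) were higher. That share was 8 of 32 (25%) for the inflammatory list and 9.1% for all sites. For ribosomal protein genes the median log2 fold change was 0.06 and turned to -0.02 with the floor scaling. With DESeq2's test 5 ribosomal protein and 4 housekeeping sites were higher, and without any 1 library 7 to 9 and 4 to 6. RPL22L1 had the smallest p of them: 37.1 and 36.2 CPM at 48 h and 110 and 108 CPM at 72 h in another gene's body 61585 bases away (chr3:170802476-170803290, log2 fold change 1.57). EEF1A1, ENO1, ACTB and ACTG1 were among the housekeeping genes with higher sites.

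**Figure D5:**
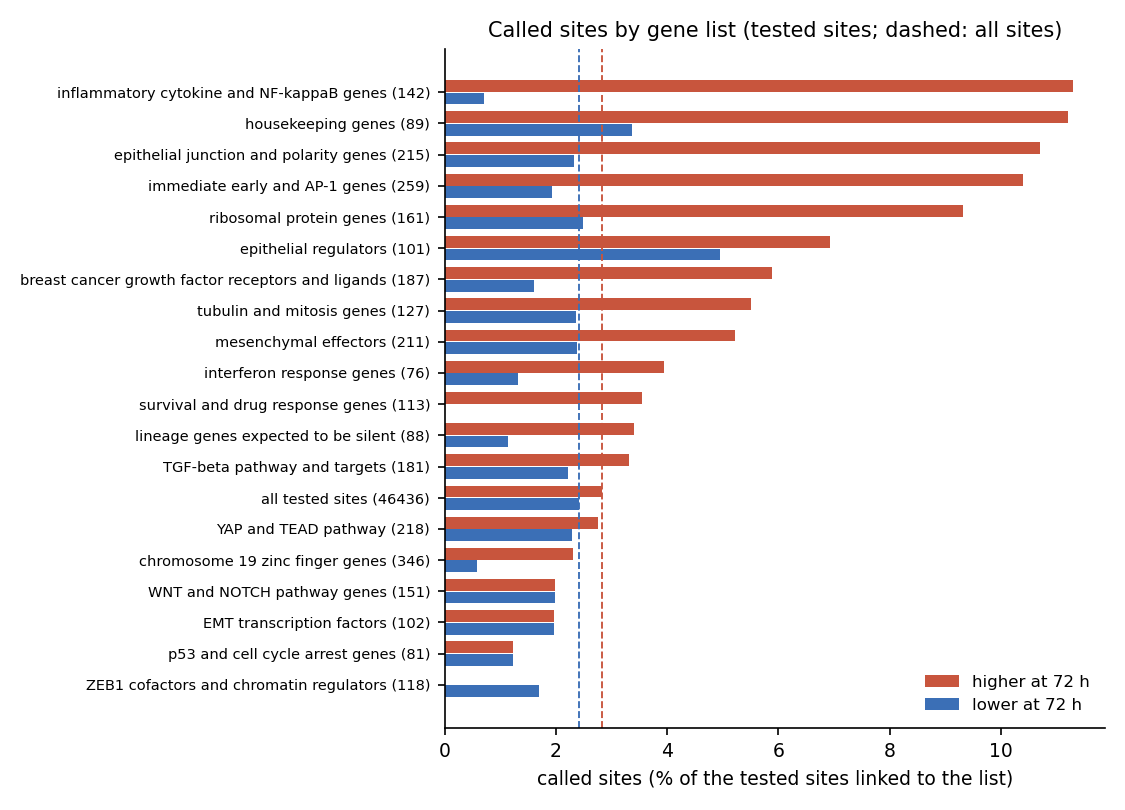
Bars give, for each of 19 gene lists and for all tested sites, the percentage of tested sites called higher or lower at 72 h, with the number of sites in brackets and dashed lines at the shares over all sites (2.82% and 2.41%). Inflammatory, housekeeping, junction, immediate early and ribosomal protein lists have higher shares between 9.32% and 11.3%.

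In genes of eribulin's own target, tubulin and mitosis, 7 of 127 sites were higher (5.51% against 2.82% of all) and 3 lower (2.36% against 2.41%). With the floor scaling 5 were higher and 4 lower, and DESeq2's test called 0 of the 46 sites of this list with an adjusted p. TUBA1C, an alpha-tubulin gene, rose from 22.4 and 29.5 CPM to 47.6 and 53.7 CPM at a site 357 bases from its end (log2 fold change 0.96), and TUBB and STMN1 each had 1 higher site. The site linked to KIF2A, the gene of a kinesin that takes microtubules apart, lies 4192 bases away in the body of another gene, DIMT1. It fell from 11.6 and 12.8 CPM to 2.6 and 2.78 CPM (log2 fold change -2.16, -3.74 to -0.91). Its counts were low: 15 and 17 in the 48 h libraries, then 3 in each 72 h library. The TUBA1C call was lost in 2 of the 4 fits that left out a library, and the KIF2A call in 3. Growth factor receptor and ligand genes had 11 higher (5.88% against 2.82% of all) and 3 lower (1.6% against 2.41%) of 187 sites. Of the higher sites, 3 each were at KDR, EPHA2 and EGFR. DESeq2's test called 3 higher and 0 lower of the 75 with an adjusted p. KDR, the VEGF receptor gene, rose from 34.8 and 36.2 CPM to 79.6 and 75.0 CPM 50197 bases away. Survival genes had 4 higher of 113 (3.54%, near the share of all sites), among them the promoter of BCL2L1, which encodes BCL-xL (192 and 168 CPM, then 242 and 269 CPM). YAP and TEAD pathway genes (6 higher and 5 lower of 218, with 4 of the higher at AMOTL2) and TGF-beta genes (6 and 4 of 181) had shares near those of all sites. So had WNT and NOTCH genes (3 and 3 of 151), p53 and arrest genes (1 and 1 of 81), interferon genes (3 and 1 of 76) and lineage genes chosen as silent (3 and 1 of 88). With the floor scaling lower sites outnumbered higher ones in these 6 lists, as they did over all tested sites (886 higher and 1621 lower). There were 2 higher and 10 lower for YAP and TEAD, 5 and 7 for TGF-beta and 2 and 4 for WNT and NOTCH. For p53 and arrest there were 0 and 1, for interferon 1 and 2 and for lineage genes 3 and 4. With DESeq2's test 0 sites were called in the YAP and TEAD, WNT and NOTCH, p53 and arrest, and interferon lists. It gave an adjusted p for only 78, 50, 40 and 31 of their sites. Over all sites it called 187 lower and 264 higher of 16727. TGF-beta genes had 2 higher and 0 lower of 73 in that test, and lineage genes 1 and 1 of 32. Chromosome 19 zinc finger genes had 8 higher (2.31% against 2.82% of all) and 2 lower (0.578% against 2.41%) of 346 sites. These became 2 and 5 with the floor scaling, and 1 and 1 of the 177 with an adjusted p in DESeq2's test. Genes of ZEB1's cofactors and chromatin regulators had 0 higher and 2 lower of 118 sites, at HDAC2 and KDM5B. The share of lower sites was 1.69% against 2.41% of all, and DESeq2's test called 0 of the 35 sites of this list with an adjusted p.

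The deposited peak lists, 1 for each time, held fewer peaks at 72 h. The 48 h list held 21816 peaks and the 72 h list 17941. Of 72 h peaks 79.8% (79.2 to 80.3) overlapped a 48 h peak by at least 1 base, and of 48 h peaks 65.3% (64.7 to 66.0) overlapped a 72 h peak. Because the lists differ in length, the comparison was repeated with the top 17941 peaks of each, which gave 74.2% and 73.7%. Of the count table's regions 13849 held a peak at both times, 7004 at 48 h but not 72 h, and 3135 at 72 h but not 48 h. There were fewer counts in regions at 72 h than at 48 h, and the part of depth in these numbers was not tested. Of the 6604 tested sites with a 48 h peak and no 72 h peak, 570 were lower and 2 higher, so for most of them the counts did not differ beyond the test's threshold.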

How the data were processed

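The authors deposited a table of read counts per consensus region for the 8 ZEB1 libraries, not normalized, and 1 peak list per condition. Per the submitters' processing notes, the build was hg38 and the tools were MACS2 2.1.1, featureCounts, deepTools and bedtools 2.30.0, with Bowtie2 2.2.6, Picard, cutadapt 2.4 and bcl2fastq 2.20.0.422. The parameters are not given in the sources used here. The labels' protocols give CUT&RUN with a ligation library kit, while another label speaks of Tn5, and no cut-site shift is recorded. In the deposited lists the peak fold is a ratio over local background, and p and q are -log10 values; both were used as the authors gave them.

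Counts were fitted with edgeR 4.0.16 (TMM, filterByExpr by condition, robust quasi-likelihood fit) in R 4.3.3 over all 8 libraries, with the contrast 72 h minus 48 h and Benjamini-Hochberg adjusted p under 0.05; DESeq2 1.42.0 was an alternative. Of 52981 regions 46436 passed the filter. Gene fits used counts summed over linked sites. CPM use the TMM-scaled library size. A background floor was recovered from the fold and p columns of the peak lists, and that of 72 h was 94.46% of that of 48 h. It was taken as the floor of replicate 1 and carried to replicate 2 by the counts in regions. Each list stands for a condition, so this is an assumption. Simulated data checked the fit for 72 h against 48 h on 43223 sites: edgeR recovered 6 of 67 at 1.5-fold, 15 of 67 at 2-fold and 45 of 66 at 4-fold, with 2 false calls. The simulated counts used the fitted common dispersion of 9.77e-05, which is close to sampling noise alone. The number of false calls therefore says nothing of variation between cultures. Gene names, promoters and microRNAs are from RefSeq (GRCh38.p14), and all 957 listed symbols matched, to 956 genes. Peak overlaps used bedtools 2.31.1.

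Sites were named by rule: the 10 called sites of largest fold in each direction among those above the median level, likewise the 10 genes with the smallest p and at least 2 sites, and the site with the smallest p per list; the 10 sites with the highest level; and 3 promoters per direction. The sites of largest fold also had to have both 72 h libraries on the same side of both 48 h libraries. Sites and genes outside this rule were chosen for their role or after their values were seen. The members and lists were chosen with earlier results of these data known. The alternatives were 4 other scalings, DESeq2's test, no filter, the 48 h and 72 h libraries alone, a replicate block, an assumed variation, each library left out, other linking distances, other position windows and other peak overlaps.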

Additional observations from a re-analysis of the deposited data

Results flagged for a closer look

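The 48 h peak list held 351 peaks on unplaced contigs, outside the count table's regions, against 333 in the list of cells without drug. The 24 h list held 383 and the 72 h list 286. These peaks were not used in the comparison, and the number of peaks a list holds moves with its depth.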

How the results depend on the processing

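With 1 sample per time the counts rest on the assumed spread. DESeq2's Wald test called 187 sites lower and 264 higher, and 173 genes lower and 302 higher; with an assumed coefficient of variation of 0.2, 0 sites were lower and 1 higher, and 0 genes either way. DESeq2 gave an adjusted p for 16727 sites and 5025 genes. At unadjusted p under 0.05, edgeR had 8071 sites in the fit reported. Leaving out each of the 4 libraries gave 501 to 592 lower and 591 to 632 higher sites, and 332 to 414 lower and 457 to 503 higher genes. Linking sites within 5 kb gave 268 lower and 390 higher genes, and TMEM242 turned to 0.16. The floor scaling moved the median log2 fold change to -0.07 and gave 1027 lower and 530 higher genes (66.0% losses against 46.9%). Scaling on low-count sites gave 997 lower and 1460 higher sites and 523 lower and 971 higher genes (35.0% losses). The replicate numbers do not pair the libraries (correlation of differences at 48 h and 72 h 0.014); with a replicate block 1112 sites were lower and 1305 higher, and 680 genes lower and 774 higher. All 71 named sites, and all 20 named genes except TMEM242 with sites within 5 kb, kept their direction in every setting that gave a value; with the assumed variation all of them no longer passed. DESeq2's test gave no adjusted p for 20 of the 71 sites, whose log2 fold changes kept their direction and moved by at most 0.06, and of the rest 15 no longer passed and 36 did. Of the 71 sites, 10, 14, 16 and 18 did not pass without 48 h replicate 1, 48 h replicate 2, 72 h replicate 1 and 72 h replicate 2, while all 20 genes did. Of 72 h peaks 65.9% overlapped a 48 h peak at 50% reciprocal overlap, 74.2% with equal numbers and 80.9% at -log10 q of at least 3.3; of 48 h peaks, 54.2%, 73.7% and 66.5%. Within 2 Mb and 10 Mb of a chromosome end lay 19.8% and 45.9% of lower sites and 5.66% and 20.2% of higher sites. Within 3 kb of a gene end lay 28.5% and 47.1%. A low count limits all of this: the median tested site had 34 counts at 48 h and 28.5 at 72 h, both libraries together.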
